A study of Mus musculus with 6 samples.

Results

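Asparagine, proline, alanine and cysteine are amino acids that a cell can make from glutamate, aspartate, pyruvate, methionine and serine. The genes described here are the 9 enzymes Asns, Aldh18a1, Pycr1, Got1, Gpt2, Bcat1, Cth, Cbs and Glul, taken by name as enzymes of these routes. They and the gene lists used below were chosen with earlier results of these libraries known, so their counts, medians and directions are no independent evidence. Of the 9, 8 had at least 1 transcript in the deposited data, out of 11835 genes in all. No transcript of Cbs, which makes cystathionine from homocysteine and serine, was among those listed, and the expression of Cbs was not analysed here. In siCNN3 cells, Asns and Aldh18a1 rose in the test over all genes with the 6 libraries. For Aldh18a1 this lay at the threshold (adjusted p = 0.0492, limma) and was lost in many alternative fits. Pycr1, Got1, Gpt2, Bcat1 and Cth were also at 2.02 to 5.61 times their siNC mean but did not pass this test. Cth and Got1 missed it narrowly (adjusted p = 0.0506 and 0.0529, limma). Glul was at 0.869 of its siNC mean, and its groups overlapped.

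As background, many of these enzymes are targets of ATF4, a transcription factor whose synthesis increases when the kinases of the integrated stress response phosphorylate the translation factor eIF2. ATF4 binds with a C/EBP partner to composite elements near genes for amino acid transporters, tRNA synthetases and amino acid synthesis, and Asns is the classic example. In muscle cells these amino acids serve protein synthesis, and glutamine made by Glul is exported from muscle in large amounts.

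The RNA came from C2C12 cells, an immortalised mouse myoblast line that fuses into myotubes in medium with little serum (2% horse serum here). The 3 siNC libraries came from cells that received NC siRNA, a negative control, and the 3 siCNN3 libraries from cells that received CNN3 siRNA against the actin-binding protein calponin 3. The cells of both groups were transfected and differentiated, the labels give them as mouse myotubes, and nothing in the labels says whether the replicates were separate cultures, so p-values measure the spread between these libraries. This is a transient knockdown in 1 cell line, not a deletion, and the labels do not say which CNN3 siRNA was used or when the RNA was taken. The values are FPKM, a unit that scales fragments by transcript length and library size, of 24023 transcripts, summed per gene. The depth is unknown, so no counting error can be given.
The targeted gene Cnn3 had levels of 62.8, 61.4 and 62.8 FPKM in the 3 siNC libraries, against 19.04, 39.2 and 25.6 FPKM in the 3 siCNN3 libraries. Every siCNN3 library was thus below every siNC library, with a mean of 0.448 of the siNC mean, but Cnn3 was not called over all genes (log2 fold change -1.19, adjusted p = 0.0669, limma). Of 13 muscle markers, 12 had a transcript, and their summed level was between 188.4 and 226.6 FPKM in siNC and between 105.3 and 125.8 FPKM in siCNN3. Of the 11 that were tested, 7 were called lower and 0 higher by limma, and the median log2 fold change was -1.50. Over all tested genes, 39 were called lower with the 6 libraries and 161 without siCNN3 replicate 3. Only 4 were called lower without siNC replicate 3 or without siCNN3 replicate 2, so not all 7 muscle calls hold there. On the log2(FPKM + 1) scale, which ranks markers at low FPKM lower than their ratios would, the largest falls were those of Acta1, Mylpf and Tnnt1, genes of the sarcomere, by 2.12, 1.88 and 1.71. The sum understates this, since Des, which was not called and had 113.0 to 125.1 FPKM in siNC, was its largest term. In bulk RNA, fewer cells of a type and less RNA per cell cannot be told apart. Of 7 immune cell markers, only Cd68 had a transcript (3.60 to 5.39 FPKM in siNC and 1.96 to 3.56 FPKM in siCNN3, not called, adjusted p = 0.312, limma), and of 5 adipocyte markers only Fabp4 had one. Fabp4, a fatty acid binding protein, had 8.09 to 10.9 FPKM in siNC and 2.17 to 3.13 FPKM in siCNN3 and was called lower (log2 fold change -1.45, adjusted p = 0.0152, limma). Of 7 fibroblast markers, 5 had a transcript, with summed levels of 1054 to 1445 FPKM in siNC and 697.9 to 859.7 FPKM in siCNN3. Of these 5, 0 were called by limma, 2 were lower at an unadjusted p below 0.05, and Col3a1 had the largest part in the difference of the sums.

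Since the members have ATF4 targets among them, their promoters were searched for the core of the composite element, TGATGNAA, on either strand. RefSeq windows of 300 bases (250 before and 50 after a start site, build GRCm38.p6) matched 8 of the 9 members. The motif was in 1 window each of Asns, Pycr1 and Got1, that is in 3 of the 9 windows of the members, and in 3.97% of all 32851 windows. These stretches are shown because they are the matches, each on the strand of its gene, with the motif in capitals.
Asns: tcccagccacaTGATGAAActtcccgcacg
Pycr1: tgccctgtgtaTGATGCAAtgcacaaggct
Got1: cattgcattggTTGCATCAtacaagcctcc
The Asns stretch lies at chr6:7693214-7693243, and its motif begins 23 bases before the RefSeq start site. GENCODE starts the transcript Asns-201 further upstream, at 7693254, so the stretch lies inside that transcript. The Pycr1 stretch lies at chr11:120643833-120643862 (motif 103 bases before the start site) and that of Got1, whose match is on the opposite strand, at chr19:43524689-43524718 (102 bases before it). All 3 genes are on the minus strand. The windows of Aldh18a1, Gpt2, Bcat1, Cbs and Glul did not hold these letters, which says nothing about sites elsewhere or about binding.

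The comparison of siCNN3 with siNC asks how the level of each gene changed after knockdown of CNN3. It was made on log2(FPKM + 1) with limma across the 11593 genes that had a mean of at least 0.5 FPKM, with Benjamini-Hochberg adjustment over all of them, and genes were called at an adjusted p under 0.05. Fold changes on this scale understate the change of genes at low FPKM. All 8 measured members passed the filter. Of them, 2 were called higher (Asns and Aldh18a1) and 0 lower, where 1.73% of all tested genes were called higher and 0.336% lower. The share of called genes that were higher was 83.7%, compared with 68.2% after quantile normalization. At an unadjusted p below 0.05, 7 of the 8 members were higher and 0 lower, where 9.94% of all genes were higher. The same 7 had a log2 fold change of at least 1, which 3.09% of all genes reached. In these 7 genes every siCNN3 library was above every siNC library, a pattern shown by 13.8% of all genes. The median log2 fold change of the 8 members was 1.23, compared with 0.03 over all tested genes. With 3 libraries against 3, a two-sided exact permutation test cannot give a p below 0.1, and it gave 0.1 for each of the 7 genes and 0.4 for Glul.

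**Figure D1:**
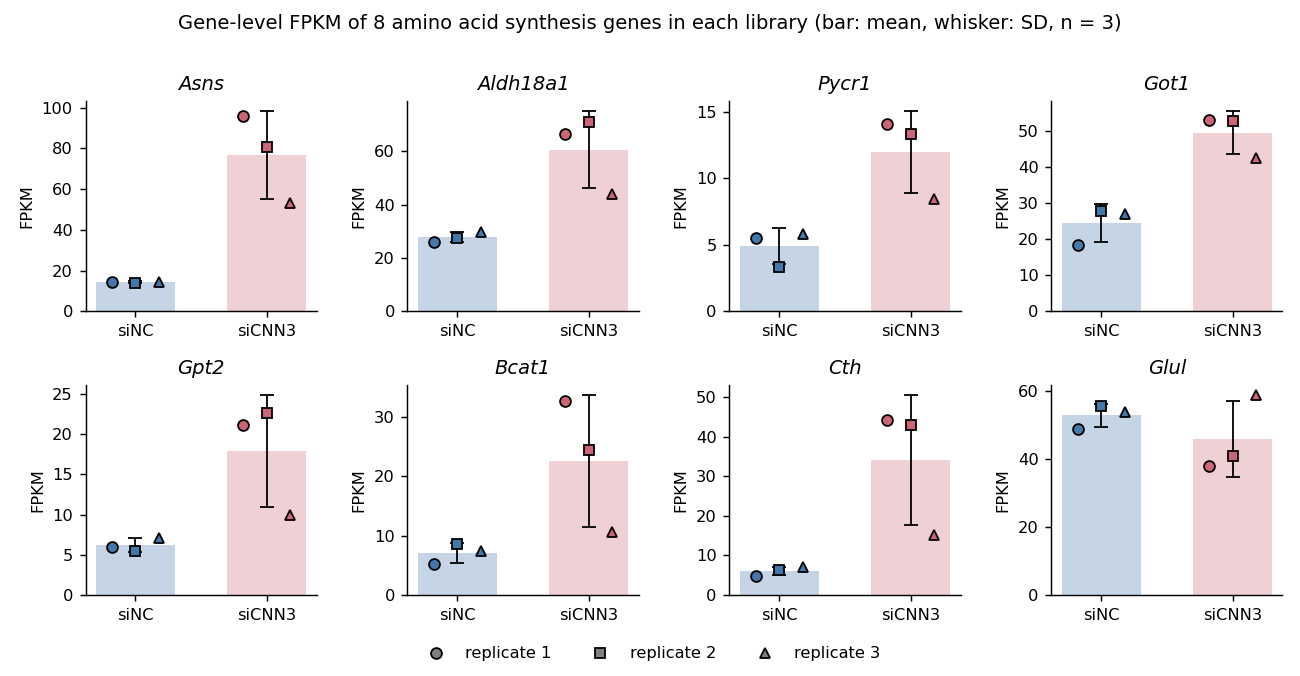
FPKM of the 8 measured genes (vertical axes, each with its own scale) in the siNC and siCNN3 libraries, where points are single libraries, bars are means and whiskers are the SD of 3 libraries. In 7 panels all siCNN3 points lie above all siNC points and siCNN3 replicate 3 is the lowest of the siCNN3 points, while in the panel of Glul replicate 3 is the highest.

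Asns, asparagine synthetase, moves an amino group from glutamine to aspartate and so makes asparagine (chromosome 6 of GRCm38, 7675169 to 7693254). Replicates 1, 2 and 3 had 14.6, 13.9 and 14.5 FPKM in the control (siNC) and 95.9, 80.7 and 53.2 FPKM after knockdown (siCNN3), and values of other genes follow in this order. The siNC libraries lay close together and far below each siCNN3 library. The mean rose from 14.3 ± 0.360 to 76.6 ± 21.6 FPKM (SD, n = 3) and was 5.34 times as high in siCNN3. On the log2 scale the difference was 2.30 ± 0.214 (standard error, 95% interval 1.79 to 2.80, adjusted p = 0.00972, limma). Asns was called with each library left out except siNC replicate 3, without which the adjusted p from limma was 0.0584.
The data list 2 transcripts of Asns, which start 383 bases apart and have the same coding sequence of 1683 nucleotides. They share 1855 nucleotides, and only 146 in Asns-201 and 161 in Asns-202 tell them apart. Asns-201 had 14.6, 13.9 and 11.3 FPKM in the control and 85.2, 71.4 and 11.6 FPKM after knockdown. Asns-202 was listed at 0 in siNC replicate 1, had 0.036 and 3.19 FPKM in the other siNC libraries, and 10.6, 9.28 and 41.6 FPKM after knockdown. Asns-201 was therefore within the siNC range in siCNN3 replicate 3, where Asns-202 held 78.2% of the sum. In siCNN3 replicates 1 and 2, Asns-202 held 11.1% and 11.5%. Tested on its own, Asns-201 differed by 1.59 on the log2 scale (adjusted p = 0.499) and Asns-202 by 3.40 (adjusted p = 0.186) in limma over all transcripts. When transcripts listed at 0 in any library were left out before summing, which removed Asns-202, the gene was not called (log2 fold change 1.59, adjusted p = 0.344, limma). The call of Asns thus holds for the sum of both transcripts.

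**Figure D2:**
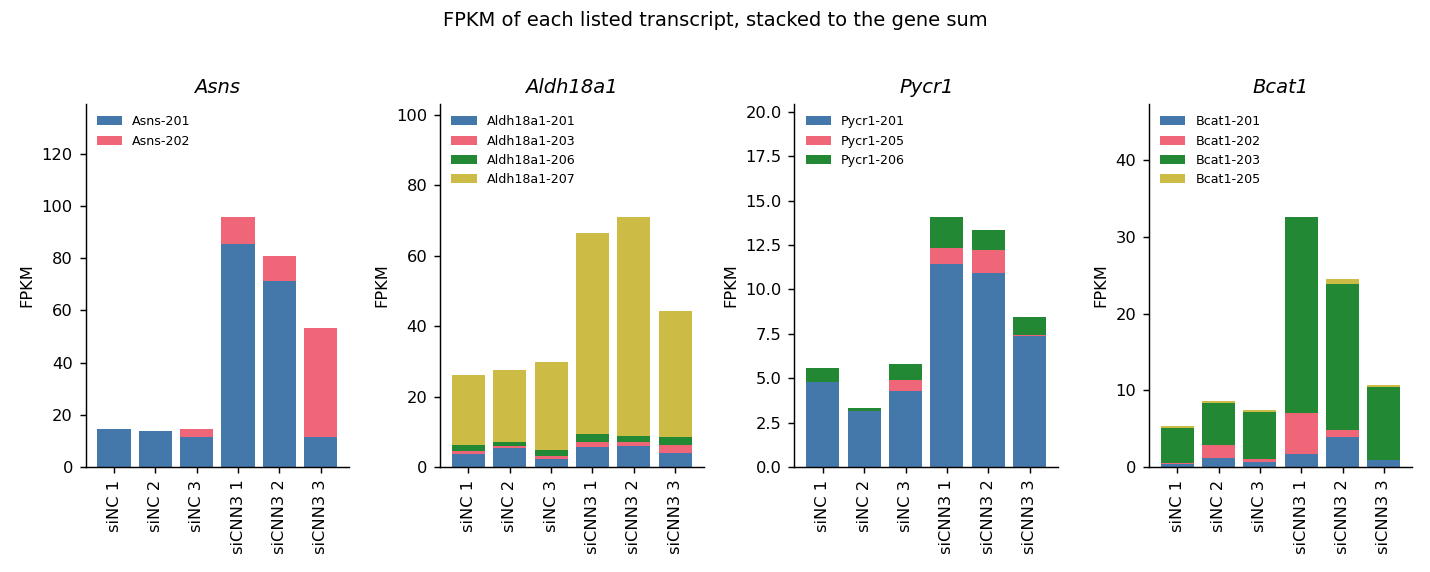
FPKM of each listed transcript of Asns, Aldh18a1, Pycr1 and Bcat1 (vertical axes, each with its own scale), stacked to the gene sum in each of the 6 libraries. In siCNN3 replicate 3 most of the Asns bar is Asns-202, 78.2%, unlike in the other 5 libraries, while Aldh18a1-207 is the largest part of Aldh18a1 in all 6.

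Proline is made from glutamate. Aldh18a1 encodes pyrroline-5-carboxylate synthase, the mitochondrial enzyme of the first steps (chromosome 19, 40550257 to 40588463). It had 26.2, 27.7 and 29.9 FPKM in the control and 66.4, 71.1 and 44.2 FPKM after knockdown, so that even the lowest siCNN3 library was above the highest siNC library. The mean rose from 27.9 ± 1.87 to 60.5 ± 14.4 FPKM (SD, n = 3), and on the log2 scale by 1.06 ± 0.191 (standard error, 95% interval 0.61 to 1.52, adjusted p = 0.0492, limma). This call lies at the threshold. It was lost with each library left out except siCNN3 replicate 3, with an adjusted p from limma of up to 0.186. It was also lost in 5 of 9 other alternative fits, among them quantile normalization (adjusted p = 0.0518, limma).
Alternative splicing gives Aldh18a1 a longer and a shorter coding sequence, of 2385 and 2379 nucleotides, and the shorter enzyme is known for its inhibition by ornithine, to which the longer is far less sensitive. The longer form, Aldh18a1-201, has 6 more coding bases (chr19:40574211-40574216, minus strand), shown in capitals above the same place in Aldh18a1-207 because they are the only coding difference between these 2 transcripts.
Aldh18a1-201: gatcttcaggggGTAAATgtgattagtgtt
Aldh18a1-207: gatcttcagggggtgattagtgtt
As listed, the shorter form made up most of the Aldh18a1 sum in every library. The 2 transcripts share 3427 nucleotides, with 100 only in Aldh18a1-201 and 0 only in Aldh18a1-207. The split between them thus rests on few bases and is less certain than the gene sum. Aldh18a1-207 had 19.9, 20.6 and 25.1 FPKM in the control and 57.1, 62.3 and 35.6 FPKM after knockdown. Aldh18a1-201 had 3.61, 5.38 and 2.29 FPKM in the control and 5.73, 6.07 and 4.07 FPKM after knockdown, where the groups overlapped. As single transcripts, their log2 fold changes were 1.17 (adjusted p = 0.135) and 0.44 (adjusted p = 0.66) by limma, and neither was called. The difference between the forms was not tested.
Pycr1 encodes a mitochondrial pyrroline-5-carboxylate reductase, which catalyses the last step to proline (chromosome 11, 120635712 to 120643769). Its level was 5.55, 3.35 and 5.78 FPKM in siNC and 14.1, 13.4 and 8.46 FPKM in siCNN3. The groups did not overlap, and siCNN3 replicate 3 was the closest to siNC. The mean was 2.45 times as high in siCNN3, and the log2 difference was 1.14 ± 0.256 (standard error, adjusted p = 0.0852, limma). Most of this was Pycr1-201, which held between 73.6% and 93.5% of the sum in the 6 libraries.

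Alanine and aspartate come from transaminases, which move amino groups between glutamate and a keto acid. Gpt2, the mitochondrial alanine transaminase (chromosome 8, 85492576 to 85527560), had 1 listed transcript with 6.01, 5.44 and 7.13 FPKM in the control and 21.1, 22.6 and 9.96 FPKM after knockdown. Replicates 1 and 2 of siCNN3 were 3.42 and 3.66 times the siNC mean, and replicate 3 was 1.61 times that mean. On the log2 scale the difference was 1.32 ± 0.303 (standard error, adjusted p = 0.0884, limma).
Got1 is the cytosolic aspartate transaminase, a part of the malate-aspartate shuttle and a source of the aspartate that Asns uses (chromosome 19, 43499752 to 43524605). It had 18.3, 27.9 and 27.0 FPKM in the control and 53.0, 52.7 and 42.5 FPKM after knockdown. Got1 was the member with the most even increase, at 2.17, 2.16 and 1.74 times the siNC mean in siCNN3 replicates 1, 2 and 3. On the log2 scale the difference was 1.00 ± 0.189 (standard error, adjusted p = 0.0529, limma), just outside the threshold.
Bcat1, the cytosolic transaminase of leucine, isoleucine and valine (chromosome 6, 144993835 to 145076184), had 5.29, 8.58 and 7.38 FPKM in the control and 32.6, 24.4 and 10.7 FPKM after knockdown. The siCNN3 libraries spread widely, from 1.51 to 4.61 times the siNC mean. On the log2 scale the difference was 1.44 ± 0.390 (standard error, adjusted p = 0.130, limma). Of its 4 listed transcripts, Bcat1-203 held between 63.9% and 88.7% of the sum. Bcat1-201, whose start lies 27372 bases downstream of that of Bcat1-203, was between 0.423 and 1.16 FPKM in siNC and between 0.893 and 3.88 FPKM in siCNN3.

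Cysteine is made from homocysteine and serine by transsulfuration, in which Cbs makes cystathionine and Cth, cystathionine gamma-lyase, splits it to release cysteine. Cth (chromosome 3, 157894248 to 157925077) had 1 listed transcript, with 4.85, 6.32 and 7.03 FPKM in the control and 44.3, 42.8 and 15.1 FPKM after knockdown. Replicates 1 and 2 of siCNN3 were 7.30 and 7.05 times the siNC mean, while replicate 3 was 2.48 times that mean. The mean of the group was 5.61 times the siNC mean, compared with 5.34 times for Asns. The log2 difference for Cth was 2.18 ± 0.403 (standard error, 95% interval 1.22 to 3.13, adjusted p = 0.0506, limma). Its standard error was larger than that of Asns, 0.403 against 0.214, and Cth was not called.
Glul, glutamine synthetase, makes the glutamine whose amide group Asns uses (chromosome 1, 153899944 to 153909723). It had 48.9, 55.6 and 53.8 FPKM in the control and 38.0, 40.7 and 58.8 FPKM after knockdown. Replicates 1 and 2 of siCNN3 were below all siNC libraries and replicate 3 was above them. On the log2 scale the difference was -0.22 ± 0.178 (standard error, 95% interval -0.65 to 0.20, adjusted p = 0.583, limma), an interval that leaves room for a moderate fall but does not reach the changes of the other 7 members.

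The order of the levels per length differed between the groups. In siNC, the mean of Glul was the highest at 52.8 FPKM, followed by Aldh18a1 at 27.9 and Got1 at 24.4 FPKM, whose libraries overlapped, and then by Asns at 14.3 FPKM. Bcat1, Gpt2, Cth and Pycr1 followed, between 4.89 and 7.08 FPKM, and the libraries of neighbours in this order overlapped. In siCNN3, the order of the means was Asns (76.6 FPKM), Aldh18a1 (60.5), Got1 (49.4), Glul (45.8), Cth (34.0), Bcat1 (22.6), Gpt2 (17.9) and Pycr1 (11.97 FPKM). The libraries of neighbours overlapped here too.

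Replicate 3 of siCNN3 stood apart for all 8 members. Its level was between 34.6% (Cth) and 80.5% (Got1) of the mean of siCNN3 replicates 1 and 2 in the 7 genes that were higher, and 149.2% in Glul. Without this library, 7 of the 8 members were called higher by limma, where 3.83% of all genes were. The log2 fold changes were then 2.54 for Asns (adjusted p = 0.000781), 2.67 for Cth (adjusted p = 0.00177), 1.68 for Gpt2 (adjusted p = 0.0049) and 1.27 for Aldh18a1 (adjusted p = 0.0045). Bcat1, Pycr1 and Got1 had log2 fold changes of 1.88, 1.35 and 1.11 in that fit (adjusted p = 0.0126, 0.034 and 0.0395, limma). Glul had one of -0.41 (adjusted p = 0.102, limma). Of the 5 fits that left out another library, Asns was called in 4 and no other member in any of them.
Interferon response markers also set replicate 3 of siCNN3 apart. The summed level of 10 interferon response markers was 3828 and 3614 FPKM in siCNN3 replicates 1 and 2 and 1955 FPKM in replicate 3, compared with 24.8, 386.9 and 112.0 FPKM in siNC. The part of this difference in the levels of the members was not tested.

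**Figure D3:**
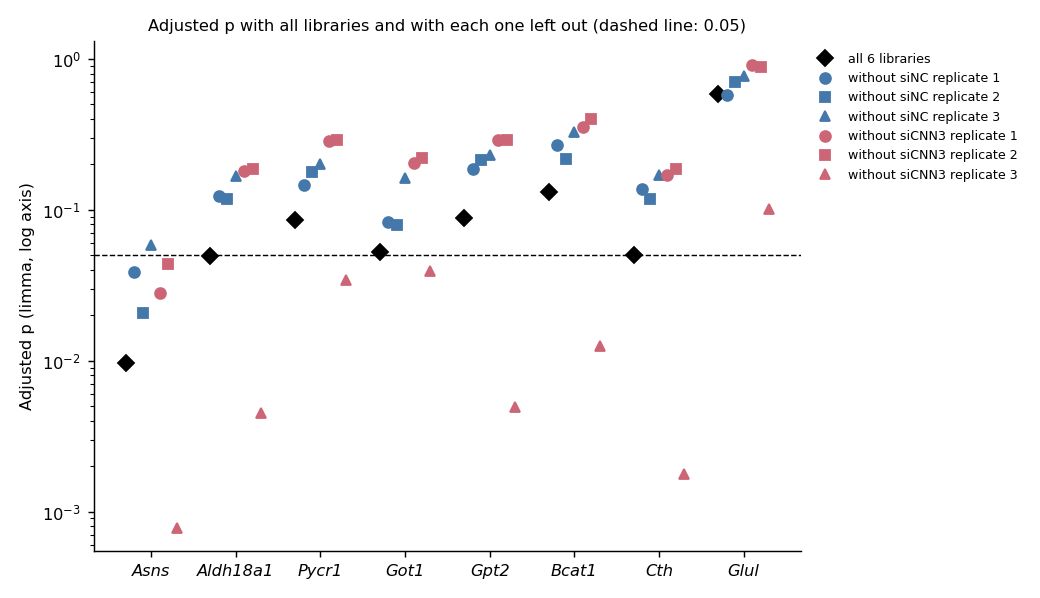
Adjusted p of each measured gene from limma (vertical axis, log scale) with all 6 libraries (black) and with 1 library left out (blue for siNC, red for siCNN3, shapes for replicates), with a dashed line at 0.05. Without siCNN3 replicate 3, 7 genes lie below the line, and with any other library left out only Asns does, except without siNC replicate 3.

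Several members have an isozyme that catalyses the same reaction, usually in another compartment, which allows a comparison within a library. The isozymes examined here, 1 each for Pycr1, Got1, Gpt2 and Bcat1, were not called and had intervals of the log2 fold change that did not reach 1. Pycrl, the cytosolic form also called Pycr3, had a log2 fold change of 0.27 (95% interval -0.11 to 0.64, limma). The values for Got2, the mitochondrial aspartate transaminase, and for Bcat2, the mitochondrial transaminase of branched-chain amino acids, were 0.08 (interval -0.28 to 0.45) and 0.06 (interval -0.30 to 0.41). Gpt, the cytosolic alanine transaminase, had 4.95, 5.52 and 6.46 FPKM in the control and 3.82, 4.49 and 4.32 FPKM after knockdown, with a log2 fold change of -0.35 (interval -0.71 to 0.01, adjusted p = 0.327, limma).

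**Figure D4:**
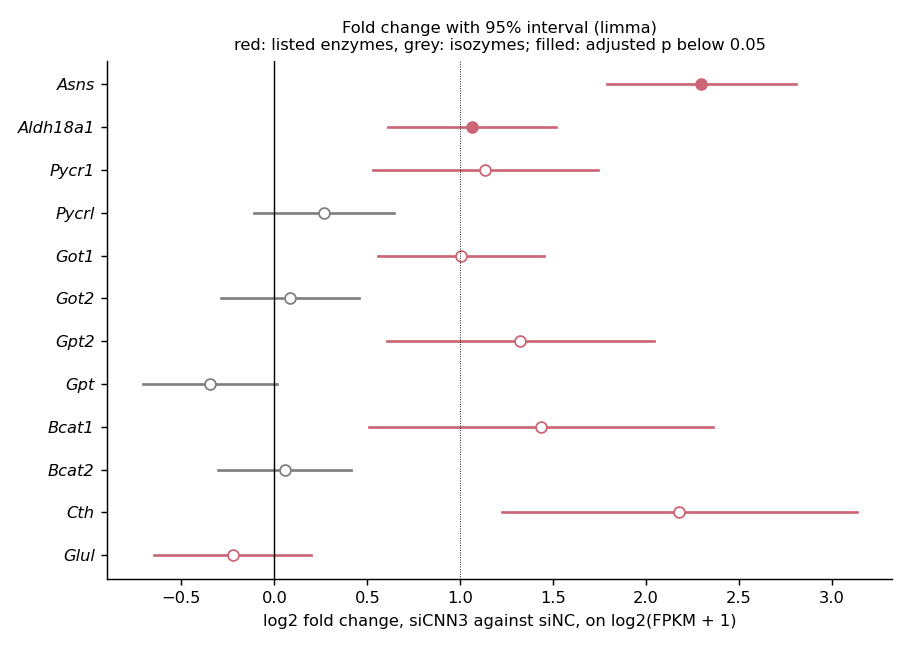
Log2 fold change on log2(FPKM + 1) (horizontal axis) with its 95% interval from limma for the listed enzymes (red) and their isozymes (grey), with filled points for genes with an adjusted p below 0.05 and a dotted line at 1. The red intervals of 7 genes lie above 0, while the grey intervals and that of Glul include 0 and end below 1.

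The ratio of each member to its isozyme was higher in every siCNN3 library than in every siNC library for all 4 pairs. For Pycr1 to Pycrl the gap was small, with a log2 ratio of -1.39 in siCNN3 replicate 3 and -1.45 in siNC replicate 1. The levels of the 4 members did not overlap between the groups either, so the ratios are no separate evidence. On the log2 scale, the difference in the ratio between the groups was 1.67 for Gpt2 to Gpt, 1.38 for Bcat1 to Bcat2, 0.92 for Got1 to Got2 and 0.87 for Pycr1 to Pycrl. The exact permutation test (two-sided) gave 0.1 for each, which is the lowest p possible here, and 0.1 after adjustment over the 4 pairs.
As shares of the summed FPKM, Gpt2 made up 54.8%, 49.6% and 52.5% of Gpt2 and Gpt in siNC and 84.7%, 83.4% and 69.7% in siCNN3. Bcat1 made up 42.0% ± 4.68 of Bcat1 and Bcat2 in siNC and 66.1% ± 14.6 in siCNN3 (SD, n = 3). The share of Got1 in both aspartate transaminases was 25.1% ± 2.27 in siNC and 39.2% ± 1.17 in siCNN3 (SD, n = 3), so the mitochondrial Got2 stayed the larger part in each library.

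**Figure D5:**
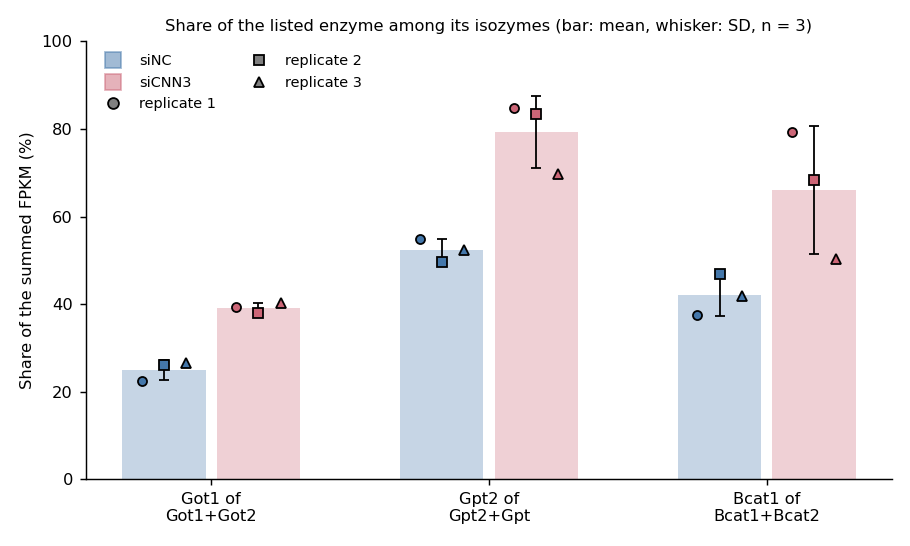
Share of Got1, Gpt2 and Bcat1 in the summed FPKM of each with its isozyme (vertical axis, percent) in siNC (blue) and siCNN3 (red), where points are libraries, bars are means and whiskers are the SD of 3 libraries. The siCNN3 points lie above the siNC points in each of the 3 pairs, and the mean share of Gpt2 is 52.3% in siNC and 79.3% in siCNN3.

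The other enzymes of the same routes form 4 lists. Of 7 tested genes of asparagine and aspartate metabolism, 1 was called lower and 0 higher, and the median log2 fold change was 0.08. The lower gene was Ass1, argininosuccinate synthase, which uses aspartate on the way to arginine. The level of Ass1 was 29.4, 24.9 and 30.0 FPKM in the control and 13.3, 15.5 and 16.1 FPKM after knockdown, and fell by 0.86 on the log2 scale (standard error 0.136, adjusted p = 0.0322, limma). All 3 siCNN3 libraries were below all siNC libraries. Of 7 tested genes of proline and glutamate metabolism, 6 of alanine and branched-chain metabolism and 10 of methionine and cysteine metabolism, 0 were called in either direction by limma. At an unadjusted p below 0.05, these 3 lists held 0, 2 and 0 genes. Their median log2 fold changes were 0.10, 0.03 and -0.004, compared with the 0.03 of all genes.
The enzymes of serine synthesis, which supplies the serine for Cbs, had differences of a similar size. Phgdh, the first enzyme, had 25.9, 42.6 and 40.1 FPKM in the control and 154.0, 141.0 and 69.6 FPKM after knockdown. Phgdh, Psat1 and Psph had log2 fold changes of 1.67, 1.19 and 1.49 (adjusted p = 0.0629, 0.0678 and 0.0846, limma), and 0 of the 3 were called, though all 3 had groups that did not overlap and an unadjusted p below 0.05. Over all tested genes, 13.8% had every siCNN3 library above every siNC library, and 9.94% were higher at an unadjusted p below 0.05.
Of 12 tested genes of the ATF4 axis, 7 were called higher and 0 lower, and the median log2 fold change was 1.66. Over all tested genes, 1.73% were called higher and 0.336% lower. The calls depend on the libraries used: the pathway lists together held 8 called genes with all 6, and between 1 and 14 with 1 left out. Atf4 itself had 135.8, 188.7 and 184.7 FPKM in the control and 399.8, 356.1 and 287.2 FPKM after knockdown (log2 difference 1.03 ± 0.177, standard error, adjusted p = 0.0427, limma). The 3 called genes of this list with the largest change were Trib3, a pseudokinase that restrains ATF4 signaling, Chac1, which degrades glutathione, and Nupr1, a stress-induced chromatin protein. Their log2 fold changes were 2.91, 2.79 and 2.79 (adjusted p = 0.0144, 0.00473 and 0.0099, limma). Not every gene of this list was lowest in siCNN3 replicate 3. Nupr1 was at 315.2, 208.0 and 373.6 FPKM in siCNN3 replicates 1, 2 and 3, and Ddit3, the stress transcription factor CHOP, at 438.0, 378.8 and 570.1 FPKM. Trib3 was at 51.7, 45.1 and 20.4 FPKM there, the same order as that of Cth.

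The genes whose profile over the 6 libraries was closest to that of Asns, by the root-mean-square difference of log2(FPKM + 1) centred on the siNC mean, were Ifi202b (0.221), H2-T22 (0.233), Dennd6b (0.246), Psme2b (0.251) and A530032D15Rik (0.256). None of these 5 is a gene of amino acid synthesis. A530032D15Rik was listed at 0 in all 3 siNC libraries and passed the filter through siCNN3 alone, so that its likeness to Asns depends on the pseudocount of 1. Ifi202b is an interferon-induced gene and H2-T22 a nonclassical class I histocompatibility gene. Ifi202b had 83.4, 127.9 and 104.1 FPKM in the control and 551.1, 558.0 and 360.2 FPKM after knockdown. Among the members, Cth was the closest to Asns (0.308, rank 10 of 11592 genes), Bcat1 and Gpt2 had ranks 122 and 136, Pycr1, Aldh18a1 and Got1 had ranks 210, 230 and 278, and Glul had rank 9454. This measure includes the size of the change from siNC, so the ranks depend on how near a log2 fold change was to that of Asns. Only 358 of the 11593 tested genes had a log2 fold change of at least 1. A low rank number is thus no separate sign of shared variation between libraries. The points of this comparison share their libraries, and it is a description with no test.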

How the data were processed

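The authors deposited FPKM values of 24023 Ensembl transcripts for each of the 6 libraries, with no read counts. The program and annotation behind these values are not given in the sources used here, and the submitters' processing notes name Bowtie 0.12.2 and the builds mm8 and mm10 without a role. Identifiers were matched without version to GENCODE transcripts of GRCm38, which matched 23949, and FPKM were summed per symbol. The other 74, with 0.159% to 0.220% of a library, were dropped. Zeros may be failed estimates: 181 transcripts are listed at 0 in exactly 1 library while another replicate has at least 10 FPKM.
Genes whose mean reached 0.5 FPKM were fitted as log2(FPKM + 1) with limma 3.58.1 in R 4.3.3 (mean-variance trend, no block, Benjamini-Hochberg adjustment, threshold 0.05). The fit was also run on simulated data in which genes and libraries varied independently. That run does not cover a deviation shared by many genes of 1 library. Isozyme ratios used the same pseudocount of 1 and two-sided exact permutation tests. No alternative was added after the planned ones. Members and lists were chosen with earlier results of these data known, and the lists come from general knowledge. Genes named are the 9 members, 4 isozymes, the up to 3 called genes with the largest change in each pathway or marker list, the 5 genes most like Asns and Cnn3. Other genes (Phgdh, Psat1, Psph, Atf4, Ddit3, Des, Cd68, Col3a1) were chosen after their values were seen, and interferon response and fibroblast markers are given as sums. Promoter windows are from RefSeq. Figures were made with matplotlib 3.10.9 in Python 3.11.15.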

Additional observations from a re-analysis of the deposited data

How the results depend on the processing

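The number of members called, 2 of 8 with all libraries, was 4 with a filter at 5 FPKM or with median-of-ratios scaling (Asns, Aldh18a1, Cth and Got1 in both), 3 after quantile normalization (Asns, Cth and Got1, with Aldh18a1 at an adjusted p of 0.0518), 1 with limma without a trend, and 0 with a per-gene model without shared spread or after leaving out transcripts listed at 0, where 7 and 6 members had an unadjusted p below 0.05. Leaving out 1 library gave between 0 and 7 called members, the lowest without siNC replicate 3 (7 at an unadjusted p below 0.05) and the highest without siCNN3 replicate 3. Over all genes, 200 were called higher and 39 lower. Without shared spread 0 were called in either direction (1084 higher and 716 lower at an unadjusted p below 0.05), 125 were called higher after leaving out transcripts at 0, and 63 and 93 were called lower with median-of-ratios scaling and quantile normalization. With 1 library left out, between 16 and 444 genes were called higher and between 4 and 161 lower. Of the 45 tested genes of the pathway lists, 8 were called, 0 without shared spread (18 at an unadjusted p below 0.05), and between 1 and 14 with 1 library left out. The adjusted p of Asns was between 0.000781 and 0.344 over the 15 alternatives. The groups of the 4 isozyme ratios did not overlap after quantile normalization, with a pseudocount of 0.1 or with transcripts at 0 left out, while leaving out a library cannot make them overlap. With the longer motif TGATGNAAT, 0.965% of all windows held a match, and of the members only that of Pycr1.
With the replicate number as a block, 1 member was called (Asns, adjusted p = 0.0296), with 62 genes higher, 6 lower and 5 in the pathway lists. The deviations of libraries with the same number had correlations of -0.278, 0.314 and -0.0247, so the numbers were not taken to pair the samples, and not every library correlated best with its own number. The depth is unknown, so counting error could not be set beside the spread between libraries. The causes of these differences were not tested.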
